A study of Mus musculus with 5 samples.

Results

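The genes described here run the chromosome cycle of mouse cells: the spindle checkpoint, the mitotic kinases, the proteins that hold and separate chromosomes, the cyclin-dependent kinases with their cyclins and activating phosphatases, the proteins that license and copy DNA, and the E2F factors that switch many of these genes on. A list of 50 such genes was chosen by name, and every probe whose transcript record belongs to one of them was taken. Of the 50 genes, 49 were measured, by 74 probes, among 15432 named genes on the arrays. Skp2, which encodes a substrate receptor of an SCF ubiquitin ligase, had no named probe and was not analysed here.

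RNA was profiled on 5 mouse oligo arrays, 1 for each condition. ES was the mouse embryonic stem cell line E14, and Hepa1-6 was a mouse hepatoma line. EHe was a hybrid line made by polyethylene glycol fusion of E14 carrying a hygromycin resistance gene and RFP under the EF-1α promoter with Hepa1-6 carrying a neomycin resistance gene and GFP. Hybrids were selected with both drugs and grown from individually picked ES-like colonies, which the study describes as near-tetraploid. The sources do not say how many colonies supplied the arrays, nor whether the ES and Hepa1-6 arrays were made from the marked or the plain lines. EHeD7 and EHeD14 were EHe differentiated for 7 and 14 days. By the labels, ES and EHe grew with leukemia inhibitory factor in medium with serum replacement and 1% fetal bovine serum. The differentiating hybrids lay on gelatin in DMEM of high glucose content and 15% fetal calf serum, and Hepa1-6 grew in the same kind of medium with 10%. The medium therefore changed together with the cell state, and the 2 cannot be told apart. The arrays were meant to ask how closely the hybrid follows each parent, before and during differentiation.

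In the cell cycle, cyclin-bound kinases drive cells through DNA synthesis and into mitosis, while licensing proteins load the MCM helicase onto replication origins in G1. The spindle checkpoint then holds back the anaphase-promoting complex until every chromosome is attached, after which separase cuts cohesin and the sister chromatids part. ES cells are known for a short G1 phase and fast division.

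Values are scaled log2 signals: the log2 of a probe's intensity minus the log2 of that array's 75th percentile, so that 0 is the level of the 75th percentile and a difference of 1 is 2-fold. Where a gene had several probes, the one with the highest mean was used. A probe's signal depends on its sequence, so values are compared for 1 gene between arrays and never between genes. Since each condition had a single array, replicate error is unknown and no test or p-value is given. A gene was singled out where arrays differed by over 3-fold. Spots of 245 probes were printed 10 times. Their log2 signals had a median SD of 0.073 to 0.11 within an array, which measures spot noise and not the spread between cultures.

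The 75th percentile lay between 1084 and 1445 intensity units, and 54.7% to 67.6% of probes were well above background. Of the 49 genes, 48 were well above background on all 5 arrays, and only Ccnd2 fell below it, in Hepa1-6. Most cell type markers matched the labels. Pou5f1, Sox2, Zfp42, Tdgf1 and Esrrb, pluripotency genes, were well above background in ES and in all 3 hybrid arrays and not in Hepa1-6. The other measured pluripotency genes, Dppa5a and Klf4, were well above background on all 5 arrays, with Klf4 at 5.52 in ES and 4.55 in Hepa1-6. Alb and Fgb, liver plasma proteins, were well above background in Hepa1-6 alone, as were Apoa1 and Apoa2. The hepatocyte genes Afp, Apob and Hnf4a were well above background in ES too. Hepa1-6 was hybridized on a slide of its own and the other 4 arrays shared a slide, so the slide and the line cannot be told apart in any comparison with Hepa1-6.

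**Figure D1:**
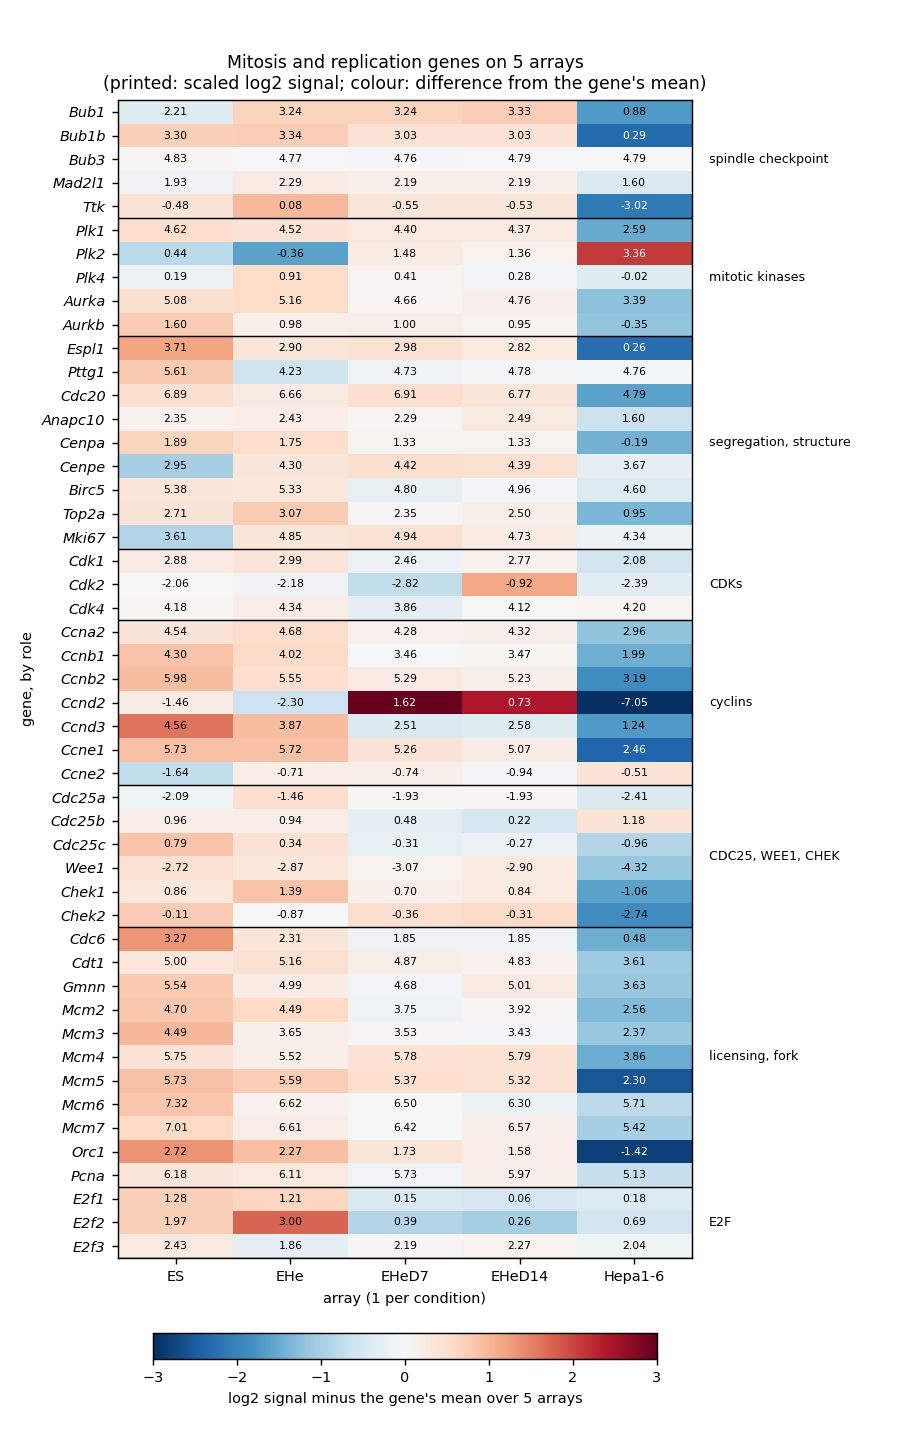
Scaled log2 signal of the 49 measured genes (rows, grouped by role) on the 5 arrays (columns, 1 array per condition). Printed numbers are scaled log2 signals, and the colour is the difference from the gene's own mean over the 5 arrays, with differences over 3 in size drawn in the end colours. The Hepa1-6 column holds the lowest value of 37 genes. The Ccnd2 value of -7.05 in Hepa1-6 was not well above background.

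Most of these genes were lower in the hepatoma line than in ES cells. In Hepa1-6 against ES, 27 of 49 genes were over 3-fold lower, among them the origin recognition subunit Orc1, separase (Espl1), the helicase subunit Mcm5, cyclin E1 (Ccne1) and the checkpoint kinase Bub1b. Of all 29956 probes compared, 25.3% were over 3-fold lower and 14.4% over 3-fold higher. A single member, the polo-like kinase Plk2, was over 3-fold higher. At 2-fold, 33 members were lower and 2 higher, against 35.8% and 20.7% of all probes. The median difference of the 49 genes was -1.61, beside -0.39 for all probes, and 43 of the 49 lay below 0, as did 60.5% of all probes. For 17 genes of a housekeeping list the median was -0.27. Hepa1-6 held the lowest of the 5 values for 37 of the 49 genes, against 38.8% of all probes. For 13 of the 49 it lay over 3-fold below each of the other 4 arrays, against 13.3% of all probes. In RNA from whole cultures, fewer cells in a phase of the cycle and less RNA per cell cannot be told apart.

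The size of that shift depended on how the arrays were scaled. With each array centred on its median instead of its 75th percentile, the median of all probes moved from -0.39 to 0.39, probes called higher went from 36.3% to 60.0% of all calls, and 11 members instead of 27 were over 3-fold lower. The members' median minus the median of all probes was -1.22 under both scalings, and with median centring 36 of the 49 genes still lay below 0. The members' median relative to all probes ranged between -1.44 and -1.22 under all 8 ways of processing the signals. The 11 genes that stayed over 3-fold lower under median centring were Bub1b, Ttk, Espl1, Ccnb2, Ccnd2, Ccnd3, Ccne1, Chek2, Cdc6, Mcm5 and Orc1. All 11, and Plk2 in the other direction, passed 3-fold under every setting run for them.

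**Figure D2:**
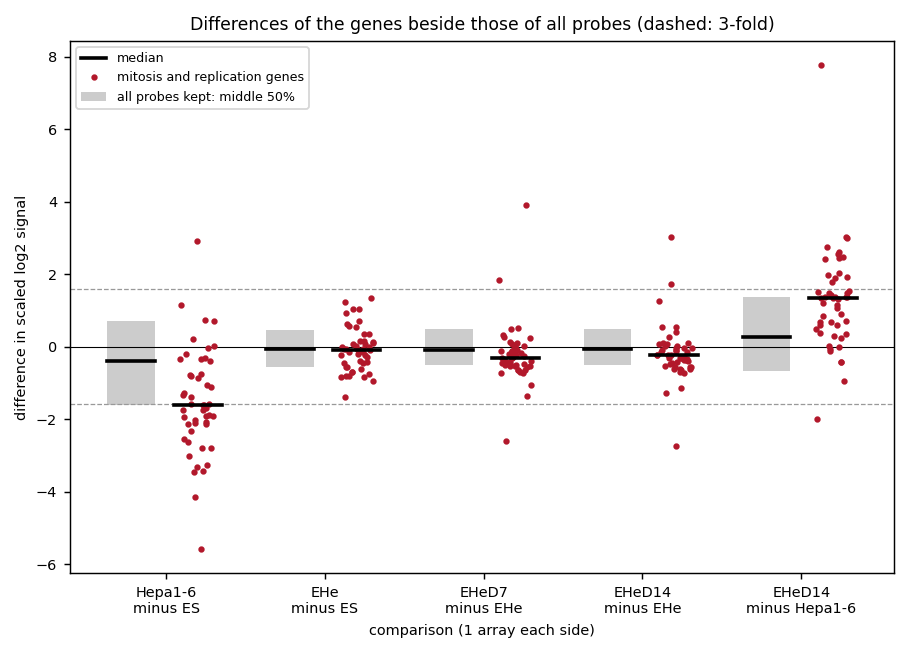
Difference in scaled log2 signal for each of the 5 comparisons (1 array on each side). Red points are the 49 genes, grey bars the middle 50% of all probes kept, black lines the medians of each, and dashed lines a 3-fold difference. The genes lie mostly below the bar's centre for Hepa1-6 minus ES, at a median of -1.61, and near 0 for EHe minus ES, at -0.10. The highest point at the right is Ccnd2, which was not well above background in Hepa1-6.

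The undifferentiated hybrid lay close to ES for these genes. In EHe against ES none of the 49 was over 3-fold higher or lower by the probe used, while 3.68% of all 29979 probes were higher and 5.66% lower. Other probes of Bub1 and Cenpe were over 3-fold higher in EHe. The members' median difference was -0.10, beside -0.06 for all probes. All 27 genes that were over 3-fold lower in Hepa1-6 lay within 3-fold of ES in EHe. Of all 49 genes 23 were over 3-fold higher in EHe than in Hepa1-6, against 21.7% of all probes. Of the 27, which had been taken for their low Hepa1-6 value, 20 were. At 2-fold, 4 genes were higher in EHe and 1, Pttg1, was lower, against 9.21% and 12.3% of all probes.

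The 7- and 14-day differentiated hybrids kept most of these genes close to EHe. At both days 46 of 49 genes lay within 3-fold of EHe and 43 within 2-fold. The same 2 genes, Ccnd2 and Plk2, were over 3-fold higher at 7 and at 14 days, and the same gene, E2f2, was over 3-fold lower. Of all probes, 6.28% were over 3-fold higher at both days and 3.47% lower at both. At 7 days 7.97% of all probes were over 3-fold higher and 4.24% lower, and at 14 days the shares were 8.18% and 4.68%. Among probes well above background on all 5 arrays the shares were smaller, at 3.39% and 1.99%, then 3.53% and 2.38%. The members' medians were -0.31 at 7 days and -0.23 at 14 days, beside -0.08 and -0.07 for all probes. In total 33 genes lay below EHe at both days and 8 above it at both, beside 47.6% and 38.8% of all probes. Between the 2 days, 48 of the 49 differed by less than 2-fold. The exception was Cdk2. At 2-fold, 2 genes were higher and 3 lower at 7 days, against 14.8% and 10.8% of all probes, and 3 higher and 3 lower at 14 days, against 14.6% and 9.47%.

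Among the 27 genes that were over 3-fold lower in Hepa1-6 than in ES, 21 lay below EHe at 7 days and 22 at 14 days, with medians of -0.31 at both, and 26 stayed within 3-fold of EHe at 14 days. Of the other 22 genes 17 and 14 lay below EHe at these days, with medians of -0.33 and -0.18. Of all probes 54.7% and 54% lay below EHe at 7 and 14 days. At 14 days 13 of the 27 were over 3-fold above Hepa1-6, the array by whose low value they were taken. Over all 49 genes, EHeD14 minus Hepa1-6 had a median of 1.34 beside 0.28 for all probes, with 14 genes over 3-fold higher and 1, Plk2, lower. The shares of all probes were 22% and 12.8%. At 2-fold, 29 genes were higher and 1 lower, against 32.1% and 19.6% of all probes. This comparison shares its arrays with those above, so it adds a distance and not a separate finding.

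Markers of other cells moved over the same days. Of 6 fibroblast and mesenchyme genes, 5 had signals over 3-fold higher than in EHe at 7 and at 14 days, and Vim was lower. Among the 5, Col3a1 was not well above background in EHe. Its differences are known only to be at least 1.82-fold and 2.16-fold at these days. Their summed scaled signal, which Vim dominates, was 22.2 in ES, 40.6 in EHe, 16.3 and 20.5 in EHeD7 and EHeD14, and 6.92 in Hepa1-6. Col1a1, a fibrillar collagen, went from -4.17 in EHe to 0.30 in EHeD7 and 0.11 in EHeD14. EHe itself lay below ES for Col1a1, Col1a2 and Pdgfrb, by 2.28-fold, 2.75-fold and 9.81-fold. At both days Col1a1, Col1a2 and Thy1 lay above ES. Pdgfrb, at -1.17 in ES, stayed below it, at -1.67 in EHeD7 and -2.18 in EHeD14. The summed scaled signal of 7 pluripotency genes was 339 in ES and 393 in EHe, 239.5 and 134 at 7 and 14 days, and 23.6 in Hepa1-6. Dppa5a dominates this sum in ES and the hybrids, and Klf4 does in Hepa1-6. The single genes diverged. At 14 days Esrrb, Klf4, Zfp42, Sox2 and Dppa5a were 116-fold, 41.9-fold, 17.0-fold, 4.49-fold and 2.42-fold lower than in EHe. Pou5f1 and Tdgf1 differed from EHe by 0.13 and -0.18. For 7 hepatocyte genes the summed scaled signal stayed between 0.077 and 0.22 outside Hepa1-6 and was 204 there. None of the 7 was well above background in EHe. Apob and Hnf4a were in EHeD7, at least 1.52-fold and 1.47-fold above EHe. In EHeD14 Hnf4a alone was, at least 1.38-fold above EHe. Afp, Alb, Apoa1, Apoa2 and Fgb were not well above background in either differentiated hybrid. The part of a changing mix of cells in the differences on differentiation was not tested.

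**Figure D3:**
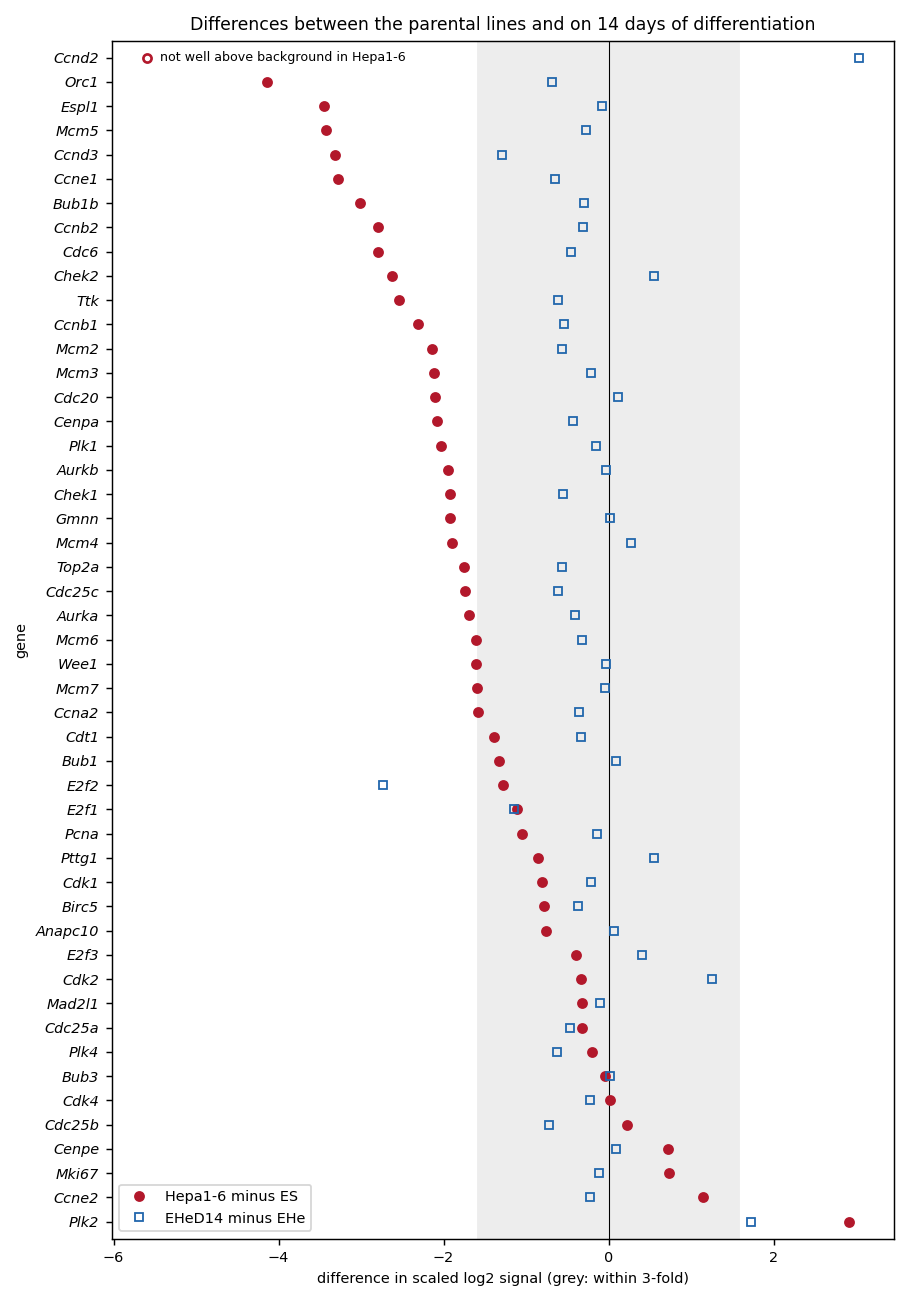
Difference in scaled log2 signal for each of the 49 genes between the parental lines (red circles, Hepa1-6 minus ES) and over 14 days of differentiation (blue squares, EHeD14 minus EHe). The pairs of arrays behind the 2 series do not overlap, and the grey band marks less than 3-fold. The circles spread from -5.59 to 2.92, while 46 of the squares lie within the band. The circle with a white centre, Ccnd2, was not well above background in Hepa1-6.

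Promoter windows are shown for the genes at the 2 ends of the parental comparison. Orc1, Espl1, Mcm5, Ccnd3, Ccne1 and Bub1b were 8.06- to 17.6-fold lower in Hepa1-6 than in ES, the 6 largest such differences among genes with a window, and Plk2 was 7.55-fold higher. Cell cycle promoters are known for 3 short elements: the cell cycle homology region (CHR, TTTGAA) and the CCAAT box in genes of G2 and mitosis, and E2F sites, searched as TTCCCGC and TTGGCGC, in genes of the G1/S boundary. The sequences are the 250 bases before the most upstream RefSeq start in the build GRCm38.p6, written on the gene's strand from 5′ to 3′, with matches to these letters on either strand in capitals. Read on the other strand, TTGGCGC ends in letters that can run into a CCAAT box, which does not happen in the windows shown.
Orc1, chr4:108579204-108579453, + strand: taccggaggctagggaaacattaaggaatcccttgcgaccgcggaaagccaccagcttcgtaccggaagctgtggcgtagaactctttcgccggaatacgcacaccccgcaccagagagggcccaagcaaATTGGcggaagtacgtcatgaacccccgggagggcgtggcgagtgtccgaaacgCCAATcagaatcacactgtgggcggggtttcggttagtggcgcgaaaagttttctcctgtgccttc
Mcm5, chr8:75109259-75109508, + strand: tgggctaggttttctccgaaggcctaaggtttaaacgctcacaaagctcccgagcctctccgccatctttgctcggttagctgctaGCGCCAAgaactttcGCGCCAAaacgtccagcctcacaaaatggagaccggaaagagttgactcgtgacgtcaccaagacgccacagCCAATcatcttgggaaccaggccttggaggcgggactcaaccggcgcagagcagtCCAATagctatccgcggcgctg
Espl1, chr15:102296043-102296292, + strand: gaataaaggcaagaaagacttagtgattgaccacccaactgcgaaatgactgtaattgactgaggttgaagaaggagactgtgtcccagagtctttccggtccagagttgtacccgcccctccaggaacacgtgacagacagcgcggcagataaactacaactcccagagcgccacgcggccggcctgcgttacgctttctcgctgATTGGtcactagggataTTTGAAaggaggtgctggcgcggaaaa
Ccnd3, chr17:47504801-47505050, + strand: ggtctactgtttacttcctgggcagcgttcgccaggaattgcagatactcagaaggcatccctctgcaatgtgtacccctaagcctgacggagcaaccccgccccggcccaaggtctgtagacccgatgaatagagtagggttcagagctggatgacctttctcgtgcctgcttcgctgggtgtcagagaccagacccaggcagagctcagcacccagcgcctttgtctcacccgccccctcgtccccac
Ccne1, chr7:38107491-38107740, - strand: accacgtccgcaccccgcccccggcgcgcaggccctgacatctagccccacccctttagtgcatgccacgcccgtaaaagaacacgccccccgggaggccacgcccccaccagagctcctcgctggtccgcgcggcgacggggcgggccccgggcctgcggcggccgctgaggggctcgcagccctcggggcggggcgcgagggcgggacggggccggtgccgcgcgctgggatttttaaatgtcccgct
Bub1b, chr2:118597961-118598210, + strand: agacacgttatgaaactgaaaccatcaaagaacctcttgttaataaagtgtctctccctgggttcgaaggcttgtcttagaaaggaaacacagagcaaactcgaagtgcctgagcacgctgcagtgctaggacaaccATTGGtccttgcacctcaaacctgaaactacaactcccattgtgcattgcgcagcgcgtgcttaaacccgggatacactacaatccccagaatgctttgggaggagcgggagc
Plk2, chr13:110394794-110395043, + strand: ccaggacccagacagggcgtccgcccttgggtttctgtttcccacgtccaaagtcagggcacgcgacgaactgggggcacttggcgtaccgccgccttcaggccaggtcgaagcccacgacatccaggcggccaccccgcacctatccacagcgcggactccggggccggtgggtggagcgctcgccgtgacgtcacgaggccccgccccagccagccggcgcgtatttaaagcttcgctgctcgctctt

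The Mcm5 window holds E2F letters starting 164 and 149 bases before the start and CCAAT boxes 77 and 22 bases before it. In Orc1 there are CCAAT boxes 120 and 66 bases before the start, and in Bub1b 1 box 113 bases before it. The longer windows counted below run 50 bases past the start. In these, Bub1b held a CHR as well and Mcm5 held 3 CCAAT boxes. Espl1 carries a CCAAT box 44 bases and a CHR 27 bases before the start, a pairing that is known from other mitotic genes. None of these letters is in the windows of Ccnd3, Ccne1 and Plk2. Ccnd3 has a further RefSeq start downstream, whose window was not used. RefSeq windows of 300 bases, 250 before to 50 after the start, were at hand for 42 of the 50 genes, and not for Aurkb, Ccna2, Ccnd2, Ccne2, Cdc25c, Gmnn, Mcm4 and Wee1. Over these windows 35.7% of members held a CHR, 71.4% a CCAAT box and 38.1% an E2F match, beside 18.2%, 38% and 6.96% of 27025 genes. The CHR and E2F matches divided by role and the CCAAT box did not. Of 18 mitotic genes 10 held a CHR, 2 an E2F match and 13 a CCAAT box, while of 9 licensing and fork genes 1 held a CHR, 6 an E2F match and 7 a CCAAT box. Among the 21 windows of genes over 3-fold lower in Hepa1-6 than in ES, 10 held a CHR, 17 a CCAAT box and 8 an E2F match. Among the 20 windows of other measured genes the counts were 4, 12 and 8. A match is a run of letters and not a bound site.

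The licensing and fork genes were lower throughout. All 11 were over 2-fold lower in Hepa1-6 than in ES, 9 of them over 3-fold, with a median of -1.92, and none was over 2-fold away from EHe at either day. Orc1, the largest subunit of the origin recognition complex, measured 2.72 in ES and 2.27 in EHe, 1.73 and 1.58 at 7 and 14 days, and -1.42 in Hepa1-6. The hepatoma value stood 17.6-fold under that of ES, and the hybrid arrays lay between them, nearer to ES. Cdc6, the ATPase that loads the helicase with Cdt1, measured 3.27 in ES and 2.31 in EHe, 1.85 at both days, and 0.48 in Hepa1-6, so that it was 6.91-fold lower in the hepatoma line. Gmnn encodes geminin, the inhibitor of Cdt1. Its values were 5.54, 4.99, 4.68 and 5.01 in ES, EHe, EHeD7 and EHeD14, with 3.63 in Hepa1-6.

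The 6 subunits of the MCM helicase, Mcm2 to Mcm7, were all lower in Hepa1-6 than in ES, by 3.02- to 10.8-fold. Mcm5 differed most: it measured 5.73 in ES, 5.59 in EHe, 5.37 and 5.32 in EHeD7 and EHeD14, and 2.30 in Hepa1-6. For Mcm2 the values were 4.70 in ES and 4.49 in EHe, 3.75 and 3.92 at 7 and 14 days, and 2.56 in Hepa1-6. Mcm3 read 4.49 in ES, 3.65 in EHe, 3.53 and 3.43 in EHeD7 and EHeD14, and 2.37 in Hepa1-6. In both, the hybrid arrays stood between the parents. Mcm4 had 5.75 in ES and 5.52 in EHe, 5.78 and 5.79 at 7 and 14 days, and 3.86 in Hepa1-6, the only subunit above EHe at both days. The remaining pair passed 3-fold narrowly. Mcm6 measured 7.32, 6.62, 6.50 and 6.30 over ES and the hybrid arrays in order of time, and 5.71 in Hepa1-6, a 3.06-fold difference between the parents. Mcm7 measured 7.01, 6.61, 6.42 and 6.57 over the same arrays and 5.42 in Hepa1-6, a 3.02-fold difference. The subunits form a single ring, and their parental differences were unequal.

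Cdt1, the loading partner of Cdc6, and Pcna, the sliding clamp of the polymerases, were the 2 genes of this group under 3-fold, at 2.62-fold and 2.08-fold lower in Hepa1-6. The Pcna probe was printed 10 times and its spots had SDs of 0.15 to 0.18, so under the scaling used the parental difference of -1.05 is several times the spot noise. Spot noise does not cover the choice of scaling. Median centring moved the members' median for Hepa1-6 minus ES from -1.61 to -0.84, and the Pcna difference shrinks with it. Between ES and EHe, by contrast, Pcna differed by -0.07, which is under 1 SD of its spots.

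The cyclins had the lowest group median, -2.79, and the widest range. Ccne1, which drives entry into S phase with Cdk2, measured 5.73 in ES, 5.72 in EHe, 5.26 and 5.07 in EHeD7 and EHeD14, and 2.46 in Hepa1-6, 9.70-fold lower than in ES. Its relative Ccne2 went the other way, from -1.64 in ES to -0.71 in EHe, -0.74 and -0.94 at 7 and 14 days, and -0.51 in Hepa1-6, where it was 2.20-fold higher than in ES. Each of these paralogs was read by its own probe, so their differences may be set side by side but not their levels.

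The D-type cyclins, which link growth signals to Cdk4, diverged within the hybrids. Ccnd2 measured -1.46 in ES, -2.30 in EHe, 1.62 in EHeD7 and 0.73 in EHeD14, a 15.2-fold and an 8.19-fold higher signal than EHe at 7 and 14 days. In Hepa1-6 it was not well above background, at -7.05, which puts it at least 14.3-fold below ES and at least 65.2-fold below EHeD14. The bound uses the lowest signal called well above background on that array. A further 2 probes of Ccnd2 gave the same calls. Ccnd3 took the opposite course on differentiation, at 4.56 in ES, 3.87 in EHe, 2.51 in EHeD7 and 2.58 in EHeD14, with 1.24 in Hepa1-6. It was 2.56-fold and 2.44-fold lower than EHe at the 2 days, which stayed within 3-fold, and 9.93-fold lower in Hepa1-6 than in ES. Ccnd1 was not analysed here, since no probe was named for it. The study's own cell cycle list puts ES and every hybrid array over 3-fold under Hepa1-6 for Ccnd1.

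The mitotic cyclins were lower in Hepa1-6 and little different within the hybrids. Ccnb1, a partner of Cdk1, measured 4.30 in ES and 4.02 in EHe, 3.46 and 3.47 at 7 and 14 days, and 1.99 in Hepa1-6. Ccnb2 read 5.98 in ES, 5.55 in EHe, 5.29 and 5.23 in EHeD7 and EHeD14, and 3.19 in Hepa1-6, the larger parental difference of the B-type cyclins at 6.92-fold. Ccna2, the S and G2 cyclin, had 4.54 in ES and 4.68 in EHe, 4.28 and 4.32 at 7 and 14 days, and 2.96 in Hepa1-6, just inside 3-fold at 2.99-fold.

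Of the kinases that these cyclins bind, the 3 members differed far less between the parents than the cyclins did. Cdk6, a further partner of the D-type cyclins, was not a member and is read with the further genes below. Cdk1, Cdk2 and Cdk4 had parental differences of -0.80, -0.33 and 0.01, and the median of the 3 was -0.33. Cdk4 varied by 1.40-fold over all 5 arrays. Cdk2 measured -2.06 in ES, -2.18 in EHe, -2.82 and -0.92 in EHeD7 and EHeD14, and -2.39 in Hepa1-6, so EHeD14 stood 2.39-fold above EHe and 3.74-fold above EHeD7. The signs of the Cdk2 and Cdk4 parental differences turned under other settings, where they ran from -0.33 to 0.44 and from -0.14 to 0.79. A second Cdk2 probe was not well above background on any array.

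**Figure D4:**
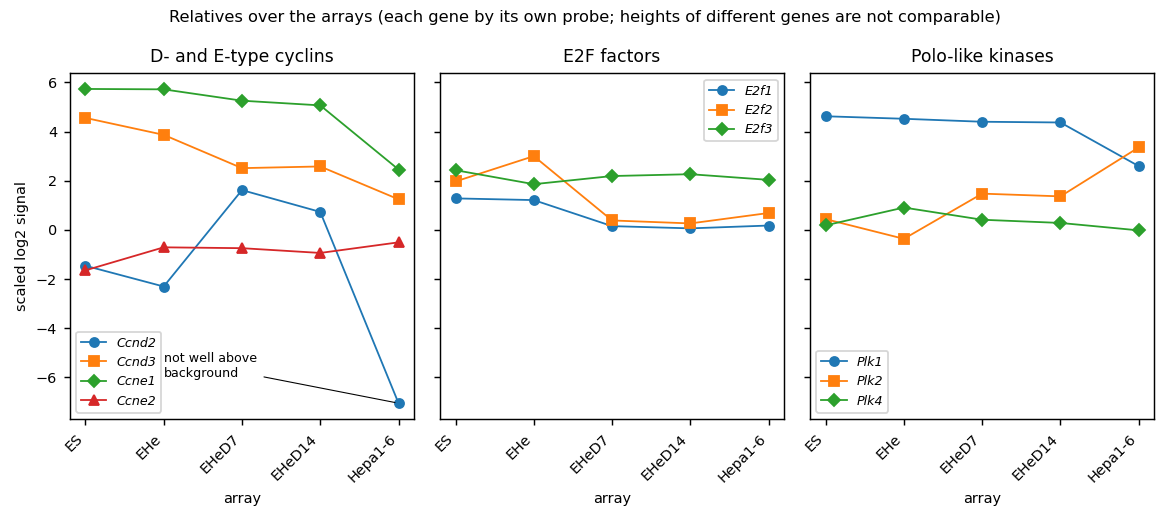
Scaled log2 signal on the 5 arrays (1 per condition) of D- and E-type cyclins, E2F factors and polo-like kinases, each gene by its own probe. The lines join the arrays for reading only, and the heights of different genes are not comparable. Ccnd2 is 15.2-fold and 8.19-fold above EHe in EHeD7 and EHeD14 while Ccnd3 is lower there, and Plk2 is highest in Hepa1-6, where Plk1 is lowest.

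Spindle checkpoint genes were split. The parental differences ran from -3.01 for Bub1b to -0.04 for Bub3, with 2 of 5 genes over 3-fold lower. Bub1b encodes BubR1, the checkpoint kinase-like protein that restrains Cdc20, and measured 3.30 in ES and 3.34 in EHe, 3.03 at both days, and 0.29 in Hepa1-6. Ttk, the kinase Mps1 that starts checkpoint signalling at kinetochores, measured -0.48 in ES and 0.08 in EHe, -0.55 and -0.53 at 7 and 14 days, and -3.02 in Hepa1-6. For both genes the 4 arrays other than Hepa1-6 stood close together, and the hepatoma value lay 8.06-fold and 5.79-fold below ES. Bub1, a kinase that recruits other checkpoint proteins, measured 2.21 in ES, 3.24 in EHe and in EHeD7, 3.33 in EHeD14 and 0.88 in Hepa1-6. It was thus 2.05-fold higher in EHe than in ES, and 4.33-fold higher by its second probe, so the 3-fold call depends on the probe. Bub3, a WD-repeat adaptor of Bub1 and BubR1, varied by 1.05-fold over the 5 arrays. Its second, dimmer probe was 2.13-fold lower in Hepa1-6 than in ES, and the sign of the parental difference turned between scalings. Mad2l1, the inhibitor of Cdc20, varied by 1.61-fold.

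Polo-like kinases went in opposite directions. Plk1, which acts at mitotic entry and at the spindle, measured 4.62 in ES, 4.52 in EHe, 4.40 and 4.37 in EHeD7 and EHeD14, and 2.59 in Hepa1-6, 4.08-fold lower than in ES. Plk2, a relative that responds to stress and serum and acts outside mitosis as well, measured 0.44 in ES and -0.36 in EHe, 1.48 and 1.36 at 7 and 14 days, and 3.36 in Hepa1-6. It was 3.58-fold and 3.31-fold above EHe at 7 and 14 days and 7.55-fold above ES in Hepa1-6, and no other member was over 3-fold higher in Hepa1-6 than on each of the other arrays, as 8.69% of all probes were. The 14-day difference dropped under 3-fold in 2 of 8 settings. Differentiated hybrids and Hepa1-6 were also the arrays from cultures in 10% to 15% serum, and the part of serum in the Plk2 signal was not tested. Plk4, the kinase that controls centriole duplication, varied by 1.90-fold.

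The aurora kinases followed Plk1. Aurka, the spindle pole kinase, measured 5.08 in ES, 5.16 in EHe, 4.66 and 4.76 in EHeD7 and EHeD14, and 3.39 in Hepa1-6. Aurkb, the kinase of the chromosomal passenger complex, measured 1.60 in ES and 0.98 in EHe, 1.00 and 0.95 at 7 and 14 days, and -0.35 in Hepa1-6. The hepatoma values lay 3.23-fold and 3.86-fold below ES.

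Genes of chromosome segregation and structure ranged from -3.45 to 0.73 between the parents, with 4 of 9 over 3-fold lower. Espl1, the protease separase that cuts cohesin at anaphase, measured 3.71 in ES, 2.90 in EHe, 2.98 and 2.82 in EHeD7 and EHeD14, and 0.26 in Hepa1-6, 10.9-fold below ES. Pttg1 encodes securin, which holds separase inactive, and its parental difference was 1.81-fold. It was 2.60-fold lower in EHe than in ES, at 4.23 and 5.61, the only member over 2-fold lower there. Cdc20, the activator of the anaphase-promoting complex, measured 6.89 in ES and 6.66 in EHe, 6.91 and 6.77 at 7 and 14 days, and 4.79 in Hepa1-6. Anapc10, a core subunit of that complex, stayed within 1.86-fold by the probe used, at 2.35 in ES, 2.43 in EHe, 2.29 and 2.49 in EHeD7 and EHeD14, and 1.60 in Hepa1-6. A second, dimmer Anapc10 probe was not well above background in ES or Hepa1-6. The study's own list gives Anapc10 a larger difference between the parents, past 3-fold, so its size is uncertain.

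Of the chromatin-bound proteins, Cenpa and Top2a were lower in Hepa1-6. Cenpa, the histone H3 variant of centromeres, measured 1.89 in ES and 1.75 in EHe, 1.33 at both days, and -0.19 in Hepa1-6. Top2a, the topoisomerase that untangles sister chromatids, measured 2.71 in ES and 3.07 in EHe, 2.35 and 2.50 at 7 and 14 days, and 0.95 in Hepa1-6. Birc5, the passenger subunit survivin, varied by 1.73-fold. Mki67, the gene of the proliferation antigen Ki-67, and Cenpe, a kinetochore motor, were not lower in the hepatoma line: Mki67 was 1.66-fold and Cenpe 1.65-fold higher there than in ES, and all their probes pointed the same way. Both had their lowest value in ES and were 2.35-fold and 2.55-fold higher in EHe. The other Cenpe probes were 3.05-fold and 3.17-fold higher there, so its 3-fold call depends on the probe.

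The CDC25 phosphatases, which activate the cyclin-dependent kinases, and the kinases that oppose them had a median parental difference of -1.67. Chek2, a DNA damage kinase, measured -0.11 in ES, -0.87 in EHe, -0.36 and -0.31 in EHeD7 and EHeD14, and -2.74 in Hepa1-6. Chek1, the replication stress kinase, measured 0.86 in ES and 1.39 in EHe, 0.70 and 0.84 at 7 and 14 days, and -1.06 in Hepa1-6. Both were clearly lowest in the hepatoma line, by 6.18-fold and 3.80-fold against ES. Cdc25c, the mitotic phosphatase, measured 0.79 in ES, 0.34 in EHe, -0.31 and -0.27 in EHeD7 and EHeD14, and -0.96 in Hepa1-6. Wee1, the kinase that inhibits Cdk1, measured -2.72 in ES and -2.87 in EHe, -3.07 and -2.90 at 7 and 14 days, and -4.32 in Hepa1-6, just past 3-fold between the parents at 3.05-fold. Cdc25a and Cdc25b varied by 1.93-fold and 1.94-fold, and Cdc25b was the only one of these 6 genes that was higher in Hepa1-6 than in ES.

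The E2F factors held the 1 member that was over 3-fold lower on differentiation. E2f2, an activator of S phase genes, measured 1.97 in ES, 3.002 in EHe, 0.39 and 0.26 in EHeD7 and EHeD14, and 0.69 in Hepa1-6. It was 6.13-fold and 6.67-fold lower than EHe at 7 and 14 days, past 3-fold in all 8 settings, and at both days it lay below Hepa1-6 as well. E2f1, a further activator, was 2.08-fold and 2.22-fold lower than EHe at these days, and 2.45-fold and 2.36-fold lower by a second probe that was printed 10 times. That second probe read -0.93 in EHe with a spot SD of 0.098, and -2.23 and -2.17 at the 2 days with spot SDs of 0.096 and 0.072. E2f3 varied by 1.48-fold, and its probes differed in sign between the parents, at -0.39 for the one used and 0.92 and 0.94 for the other two. Differences for E2f3 are therefore uncertain.

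A group of 17 of the 49 genes varied by under 3-fold over the 5 arrays: Bub3, Mad2l1, Plk4, Pttg1, Anapc10, Cenpe, Birc5, Mki67, Cdk1, Cdk4, Ccne2, Cdc25a, Cdc25b, Cdt1, Pcna, E2f1 and E2f3. The other 32 varied by more, and Hepa1-6 was the lowest array for most of them. Bub1b, Plk2, Anapc10 and Espl1 were also on the study's own list of cell cycle genes chosen on these arrays, and Chek2 on its p53 pathway list, so their differences are not independent evidence of the direction of those lists. Where a gene had several probes above background, they made the same 3-fold call in 15 of 15 genes for Hepa1-6 against ES and in 17 of 17 at each day, and in 15 of 17 for EHe against ES, with Bub1 and Cenpe as the exceptions. For EHeD14 against Hepa1-6 the calls matched in 12 of 15 genes, with Top2a, Ccnb1 and E2f3 as the exceptions. No gene had probes past 3-fold in opposite directions.

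Further genes of the same machinery were read beside the 49. Of 156 further genes in 6 lists, 148 were measured, and 52 of these were over 3-fold lower in the hepatoma line than in ES while none was over 3-fold higher, with a median of -1.21, beside 25.3% and 14.4% of all probes and their median of -0.39. Origin firing and polymerase genes had 17 of 34 lower, spindle and cytokinesis genes 10 of 25, kinetochore and centromere genes 8 of 31, cohesin and anaphase-promoting complex genes 8 of 27, nucleotide supply genes 5 of 8, and G1 cyclins and pocket proteins 4 of 23. The lowest in each list were Hmmr, a spindle-binding hyaluronan receptor, at 35.6-fold, Spc24, a subunit of the NDC80 complex, at 16.4-fold, Ccnf, an F-box cyclin, at 13.9-fold, Pole2, a subunit of DNA polymerase epsilon, at 12.0-fold, Esco2, a cohesin acetyltransferase, at 10.4-fold, and Tyms, thymidylate synthase, at 4.83-fold. The highest differences in Hepa1-6 minus ES were 1.17 for Rbl1, a pocket protein, 1.14 for Stag2, a cohesin subunit, 0.74 for Zwint, 0.69 for Orc4 and 0.31 for Ckap5, all within 3-fold.

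On differentiation 3 of these 148 genes passed 3-fold at 14 days, 1 higher and 2 lower, against 8.18% and 4.68% of all probes. Cdk6, a partner of the D-type cyclins, measured -0.36 in ES and -2.42 in EHe, 0.07 and 0.77 at 7 and 14 days. It measured -0.01 in Hepa1-6, and at 14 days it was 9.15-fold higher than EHe. By this probe ES lay 1.27-fold under Hepa1-6 and EHeD14 1.72-fold over it. The study's own cell cycle list instead puts ES and every hybrid array over 3-fold under Hepa1-6 for Cdk6. Its level against Hepa1-6 is therefore uncertain. That none of the 148 genes was over 3-fold higher there than in ES holds for the probes used. Mybl2, the transcription factor B-Myb, measured 6.08 in ES, 5.61 in EHe, 3.85 and 3.47 in EHeD7 and EHeD14, and 2.35 in Hepa1-6, 4.40-fold lower than EHe. E2f8, an atypical E2F that represses E2F targets, measured -0.57 in ES and 1.47 in EHe, -0.62 and -0.64 at 7 and 14 days, and -0.89 in Hepa1-6, 4.30-fold lower than EHe. The median of the 148 genes was -0.30 at each day, beside -0.31 and -0.23 for the 49 genes.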

How the data were processed

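RNA of 5 samples, 1 for each condition, was hybridized to Agilent mouse oligo arrays, read in 1 channel. By the labels the dye was Cy3 and differentiation took place in a monolayer. The methods name Cy5, and embryoid bodies for differentiation in general. The authors deposited the scanner tables of Agilent Feature Extraction 10.7.3.1, and the processed signal used is an intensity after the software's background correction and detrending, not normalized from array to array. The deposited 0 or 1 calls for outlier and well-above-background spots, a score of another kind, were also used. The deposited series table held the same intensities (largest relative difference 0).

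Control and outlier spots were left out (73 to 174 outliers per array), no spot was saturated, and the 75th percentile of each array was subtracted on the log2 scale before repeated spots were averaged. The 29984 of 41174 probes that passed the background call on 1 array or more were kept. RefSeq records (GRCm38.p6) named 26888 probes, and 14286 stayed unnamed. A gene was read by its kept probe with the highest mean. For a single gene, a fold with a value not well above background was given as a bound. Counts past a threshold and medians used all values as measured. With dim values raised to the detection limit, 17.6% of all probes were over 3-fold lower and 12.4% higher in Hepa1-6 than in ES. The span of a gene and its lowest array were taken with dim values raised in this way.

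Counts past 3-fold and medians were set beside those of all probes kept. Members spanning over 3-fold or listed by the study were given on every array and the rest by range. From each further list, the genes over 3-fold at EHeD14 minus EHe and the lowest and highest in Hepa1-6 minus ES were named, except that a gene is not reported here. The members and lists were chosen with earlier results of these data known. Counting was tested on simulated data. Alternatives were median centring, quantile normalization, normexp (offset 50) on the median spot signal, raising dim values to the detection limit, dropping the filter or asking it of all 5 arrays, averaging the probes of a gene, and a 2-fold threshold. Their application to single members and to the median relative to all probes was added later. With 1 array per condition no test was made and the number of arrays limits the precision. Calculations used limma 3.58.1 in R 4.3.3, and pandas 2.3.3, numpy 2.4.6 and matplotlib 3.10.9 in Python 3.11.15.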

Additional observations from a re-analysis of the deposited data

How the results depend on the processing

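Of 115 values of the main comparisons under alternative settings, 93 moved by less than the spot noise or stayed within 1.5 times the count, 21 moved by more, and 1 changed sign. Centring each array on its median, which moved the median of all probes from -0.39 to 0.39 for Hepa1-6 minus ES, gave member medians of -0.84 for Hepa1-6 minus ES, 0.0093 for EHe minus ES (the change of sign, from -0.10), -0.48 and -0.38 for EHeD7 and EHeD14 minus EHe, and 0.52 for EHeD14 minus Hepa1-6. The counts became 11 members lower and 2 higher in Hepa1-6 than in ES, 9 higher and 2 lower in EHeD14 than in Hepa1-6, and 1 higher in EHeD14 than in EHe. Quantile normalization gave medians of -1.49 for Hepa1-6 minus ES and -0.19 for EHeD7 minus EHe. Normexp background correction gave -1.73 for Hepa1-6 minus ES and 1 member higher in EHeD14 than in EHe. A filter on probes above background on all 5 arrays, which removes Ccnd2, left 1 member higher than EHe at each day. At 2-fold, EHe minus ES had 4 members higher and 1 lower, Hepa1-6 minus ES 2 higher, both days 3 lower than EHe, and EHeD14 minus Hepa1-6 29 higher. In a check added after the data were seen, the members' median minus that of all probes stayed negative for Hepa1-6 minus ES and positive for EHeD14 minus Hepa1-6 in every setting, at 1.05 to 1.35 in the latter, but for EHeD14 minus EHe it was 0.012 without a filter on dim probes, against -0.16. The causes were not tested. No paired analysis was possible because there was only a single array for every condition, and leaving out a replicate could not be run for the same reason. Differences near the spot noise cannot be read, and the spread between cultures is unknown.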

Other observations

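Of the 148 further genes measured, 6 were over 3-fold higher in EHe than in ES, a share near the 3.68% of all probes, and 1, Cdk6, was lower, against 5.66%. Those at the top of their lists were Prim2, the large primase subunit, with a difference of 3.52, E2f8 with 2.03, Stag2 with 1.86 and Knl1, a kinetochore scaffold, with 1.83. Among the 49 genes the highest in EHe minus ES were Cenpe, Mki67, Bub1 and E2f2, at 1.35, 1.23, 1.04 and 1.03. The genes named here were chosen after their values were seen.

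Hprt, a purine salvage enzyme from the housekeeping list, measured -3.31 in ES, 3.64 in EHe, 4.12 and 4.17 in EHeD7 and EHeD14, and 3.79 in Hepa1-6. Afp, a fetal liver protein, was well above background in ES and Hepa1-6 and on no hybrid array.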
